A study of Homo sapiens with 3 samples.

Results

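The 8 genes SLC12A7, APOL6, ADCY1, G0S2, DAPP1, PTP4A3, KRT86 and IGFBP3, of 43913 genes in the count tables, were chosen because their transcripts were much more abundant in MM.1S cells cocultured with HS-5 cells than in MM.1S cells grown alone. That ratio is therefore given as a description, and nothing rests on it. MM.1S is an established human multiple myeloma line of malignant plasma cells, and HS-5 is an established human bone marrow stromal line. Single cells were profiled by Drop-seq, in which bead and cell meet in a droplet, the bead's barcode marks the cell, and a unique molecular identifier (UMI) marks every captured RNA molecule. The series has 3 libraries: MM.1S in monoculture, HS-5 in monoculture, and both lines after 4 h of coculture, none of them with any further treatment. Each condition is 1 library of 1 line, so no difference has a replicate check, no test was made, and the 95% intervals cover counting error only.

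Multiple myeloma cells grow in the bone marrow among stromal cells, which release cytokines such as interleukin 6 that myeloma cells sense through the JAK and STAT3 pathway. The 8 genes do not form 1 pathway. SLC12A7 encodes a potassium-chloride cotransporter (KCC4) of the cell membrane, and ADCY1 a calcium- and calmodulin-stimulated adenylyl cyclase that makes cyclic AMP. DAPP1 (Bam32) is an adaptor of B cell receptor signalling that binds phosphoinositides, and PTP4A3 (PRL-3) is a phosphatase of the PRL family. G0S2 inhibits the triglyceride lipase ATGL, the product of PNPLA2, and APOL6 belongs to the interferon-inducible apolipoprotein L family. KRT86 is a type II hair keratin, and IGFBP3 is a secreted protein that binds insulin-like growth factors.

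Coculture cells were assigned to a line by 82 MM.1S-specific and 231 HS-5-specific genes, each 50-fold different between the monocultures, with the 8 genes left out. This gave 1640 MM.1S cells and 2106 HS-5 cells in coculture, beside 3947 MM.1S and 3732 HS-5 cells in monoculture, and 108 coculture cells with both sets were set aside as doublets. In coculture, 8 of 9 plasma cell markers exceeded the HS-5 level over 2-fold in MM.1S cells, the exception being SDC1 (124 against 126 counts per 1000000 UMIs, CPM). Of 9 stromal markers, 7 were over 2-fold higher in HS-5. Among the others, TAGLN was near 0 in both lines, and FN1 was higher in MM.1S cells, at 810 CPM in monoculture and 2225 CPM in coculture, and made up most of the summed stromal markers there (822 and 2251 CPM). From MM.1S monoculture to coculture, COL1A1 went from 1.63 to 8.29 CPM, SPARC from 0.479 to 4.52 and THY1 from 0.958 to 0. COL1A2, TAGLN, CALD1 and IGFBP7 were also higher in coculture and COL3A1 was lower, all at 3.77 CPM or less there. The MM.1S cells of the coculture were shallower than those in monoculture, with a median of 669.5 against 2201 UMIs, and had lower shares of mitochondrial UMIs (4.05% against 6.82%) and ribosomal protein UMIs (12.1% against 18.8%). HS-5 cells of the same coculture library were about as deep as in monoculture, with a median of 957 against 971.5 UMIs. With totals that leave out ribosomal protein and mitochondrial genes, the median log2 ratio of the 8 genes in MM.1S cells was 2.55, against 2.71 with all UMIs, and the comparisons at equal depth are given further on. Between libraries, 39 cell barcodes were shared by the MM.1S monoculture and the coculture, 76 by the HS-5 monoculture and the coculture, and 44 by the monocultures.

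The transporter gene SLC12A7 stood at 11.3 CPM in MM.1S monoculture (118 UMIs, Poisson interval 9.36 to 13.5) and at 194 CPM in MM.1S coculture cells (258 UMIs, 171 to 220). In HS-5 cells it had 11.6 CPM in monoculture and 9.27 CPM in coculture. The cocultured MM.1S cells thus lay apart from the other 3 groups, whose levels were close to each other, and the MM.1S fold was 17.2 (13.8 to 21.6), the highest of the 8. APOL6 had a like layout, with 21.8 CPM in MM.1S monoculture, 187 CPM in MM.1S coculture, 23.4 CPM in HS-5 monoculture and 27.0 CPM in HS-5 coculture. SLC12A7 and APOL6 were the only members of the 8 with a mean over 10 CPM in HS-5 cells, and their MM.1S monoculture intervals overlapped those of HS-5 monoculture.

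For the signalling genes, the HS-5 line gave few UMIs. ADCY1 went from 32.5 CPM in MM.1S monoculture to 214 CPM in coculture, with 3.09 and 4.43 CPM in HS-5 cells. DAPP1, the B cell adaptor, went from 46.5 to 218 CPM in MM.1S, and HS-5 cells held 7 and 8 UMIs of it (1.14 and 3.22 CPM). PTP4A3 went from 77.2 to 311 CPM in MM.1S, with 1.79 and 3.22 CPM in HS-5. The MM.1S folds were 6.59 (5.61 to 7.73) for ADCY1, 4.68 (4.04 to 5.43) for DAPP1 and 4.03 (3.57 to 4.55) for PTP4A3. Both MM.1S groups were above both HS-5 groups for these 3 genes, with no overlap of intervals.

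G0S2, the lipase inhibitor, went from 24.0 CPM in MM.1S monoculture to 166 CPM in coculture, beside 3.42 and 3.63 CPM in HS-5, a MM.1S fold of 6.92 (5.75 to 8.33). KRT86 went from 15.1 to 126 CPM in MM.1S (fold 8.31, 6.64 to 10.4). In HS-5 monoculture KRT86 had 12 UMIs (1.95 CPM) over 6 cells, 6 of them in 1 cell, and in HS-5 coculture it had 0 UMIs, where 3 counts would be 1.21 CPM. IGFBP3 had the smallest fold of the 8 (3.45, 3.22 to 3.71), from 248 CPM in MM.1S monoculture (2585 UMIs) to 856 CPM in coculture (1136 UMIs), while HS-5 cells had 8.79 and 6.45 CPM. In the plot of levels by line and culture, the 8 genes share a high place in cocultured MM.1S cells, which their choice largely fixes. The genes differ in where the other groups lie.

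**Figure D1:**
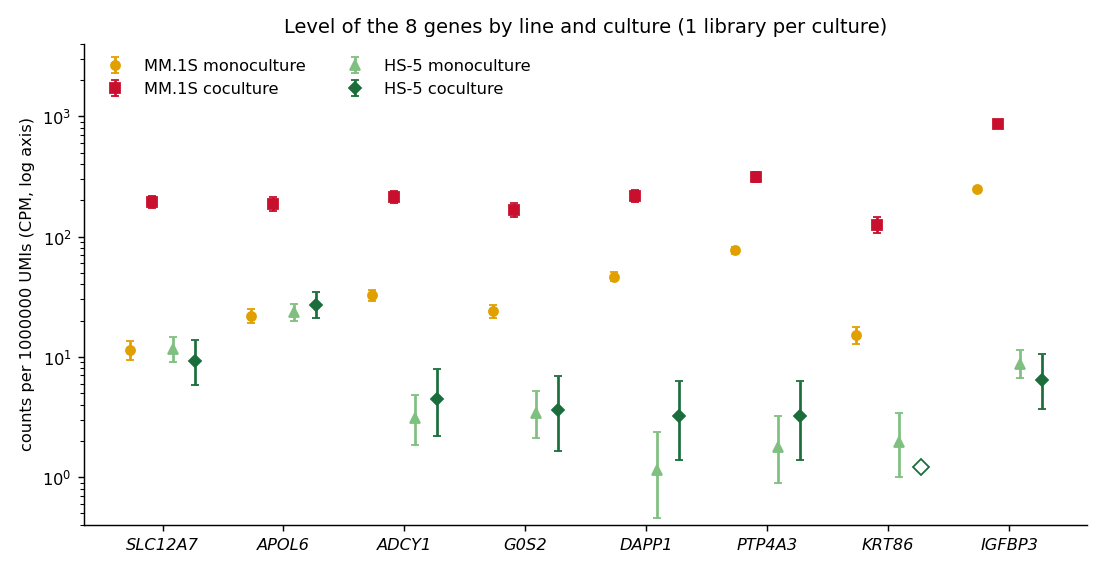
Level of each gene in counts per 1000000 UMIs (log axis) in MM.1S and HS-5 cells in monoculture and coculture, with exact 95% Poisson intervals as bars; the open diamond is 3 counts (1.21 CPM) where KRT86 had 0 UMIs. Cocultured MM.1S cells, from 126 CPM (KRT86) to 856 CPM (IGFBP3), lie above the other groups for each of the 8 genes, which the choice of the genes largely fixes.

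On the log2 scale with a pseudocount of 1 CPM, which slightly understates low genes, the MM.1S ratios were 3.99 for SLC12A7, 3.05 for APOL6, 2.97 for KRT86, 2.74 for G0S2, 2.68 for ADCY1, 2.20 for DAPP1, 2.00 for PTP4A3 and 1.78 for IGFBP3. Their median was 2.71, against 0.24 over the 7836 genes whose mean reached 10 CPM, and all 8 were at or above 10 CPM in the monoculture alone. A log2 ratio of at least 1 was reached by 8 of 8, beside 19% of the 7836 genes, and a ratio of at least 2 by 6 of 8, PTP4A3 lying just under it, beside 2.77% of genes. A ratio of −1 or lower was found in 5.79% of genes. These counts are fixed by the choice of the genes.

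The genes were not simply the most increased of all. Among the 3024 genes whose mean reached 50 CPM, SLC12A7 ranked 5 by ratio, APOL6 10, KRT86 12, G0S2 18, ADCY1 19, DAPP1 50, PTP4A3 81 and IGFBP3 121. The 10 genes outside the group with the highest ratios at that level were METRNL (4.41), CCL2 (4.33), DUSP5 (4.07), ALYREF (4.02), PA2G4P6 (3.79), IRF1 (3.59), TRIM28 (3.19), EIF3B (3.15), ODC1 (3.02) and LAMB3 (2.97). All 10 of these had an HS-5 coculture level above 0.25 of their MM.1S coculture level, METRNL for example 91.9 against 99.5 CPM. The 8 genes were all below 0.25, as were 268 of the 3024 genes (8.86%). The 0.25 limit was set with the 8 genes already known, and HS-5 levels served as a check in their choice. This count and the ranks that follow are therefore a description. Within those 268 the ranks were 1 for SLC12A7, 2 for APOL6, 3 for KRT86, 6 for G0S2, 7 for ADCY1, 12 for DAPP1, 18 for PTP4A3 and 25 for IGFBP3. Genes lying between them, named after their values were seen, included the interleukin 6 receptor gene IL6R (2.87) and the antigen peptide transporter gene TAP1 (2.74).

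**Figure D2:**
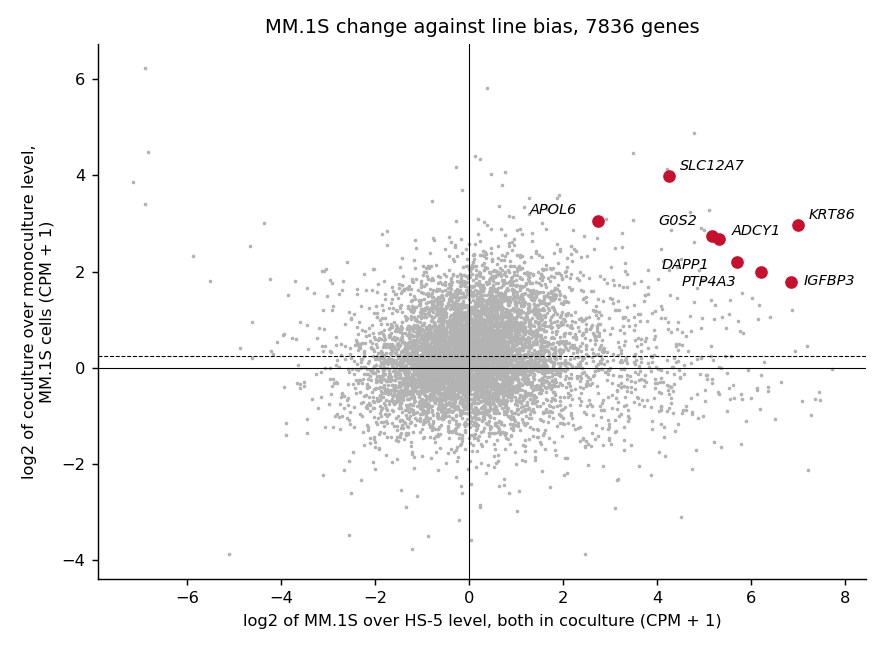
Log2 ratio of coculture over monoculture level in MM.1S cells (vertical) against log2 ratio of MM.1S over HS-5 level in coculture (horizontal), both of CPM + 1, for 7836 genes (grey) with the 8 genes in red; the dashed line is the median of all genes, 0.24. The 8 genes lie to the upper right, from APOL6, whose MM.1S level was 6.92-fold the HS-5 level, through IGFBP3 at 133-fold, to KRT86, which had 0 UMIs in HS-5 coculture cells. The choice of the genes largely fixes that position.

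The choice rested on the MM.1S ratio, and HS-5 levels served as a check for free RNA. The 8 log2 ratios of HS-5 coculture over monoculture had a median of 0.13, and 5 were above 0 and 3 below. The median was −0.04 over the 8815 genes whose mean in HS-5 cells reached 10 CPM. Only 2 of the 8, SLC12A7 and APOL6, reached that level, so this background does not match the other 6. After subtraction of the free RNA described next, the median of the 8 was −0.46 and only APOL6 (0.13) and DAPP1 (0.23) stayed above 0. Before subtraction, the highest was DAPP1 at 0.98, from 7 and 8 UMIs, and SLC12A7 was −0.29, APOL6 0.20 and IGFBP3 −0.39. No member reached 1 in either direction except KRT86 (−1.56), beside 1.19% of those 8815 genes higher and 1.83% lower by 1 or more. The counting interval of the ratio included 0 for 7 of 8. The exception was KRT86, with 6 of its 12 monoculture UMIs in 1 cell, a clumping that the interval does not cover. For the 6 genes under 10 CPM these intervals are wide. The ADCY1 fold in HS-5, for example, could lie anywhere between 0.616 and 3.17.

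RNA released by HS-5 cells into the droplets could add to the MM.1S counts, so its size was measured. Outside their own cells, HS-5-specific transcripts in MM.1S coculture cells came to 1.72% of their HS-5 level, and MM.1S-specific transcripts in HS-5 coculture cells to 0.789% of their MM.1S level. At 1.72% the HS-5 RNA would give 0.465 CPM of APOL6 in MM.1S cells, 0.249% of the level seen, and less for each of the other 7 genes. In the other direction, MM.1S RNA would give 6.75 CPM of IGFBP3 in HS-5 coculture cells, and 6.45 CPM was counted, while HS-5 monoculture, without MM.1S cells, had 8.79 CPM. Free RNA and transcripts of the HS-5 cells themselves cannot be told apart at this level. The same estimate was 2.45 CPM for PTP4A3 and 1.72 CPM for DAPP1, beside 3.22 CPM counted for each.

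The MM.1S coculture cells were also ordered by their share of HS-5-specific UMIs and cut into 3 parts: 558 cells without such UMIs, 541 cells with a share of up to 4.55% of line-specific UMIs, and 541 cells above. SLC12A7 was at 237, 175 and 183 CPM in these parts, ADCY1 at 191, 221 and 226, and IGFBP3 at 968, 815 and 809. In the cells without a single HS-5-specific UMI, each of the 8 genes was above its monoculture level, the lowest being G0S2 at 124 CPM. The choice of the genes in these same cells largely fixes that outcome. G0S2 was the only gene whose intervals for the lowest and highest part did not overlap, with 124 CPM (90.8 to 165) and 212 CPM (168 to 265). G0S2 in HS-5 coculture cells was 3.63 CPM, and the part of neighbouring HS-5 RNA in that gradient was not tested further. In the 108 doublets the levels lay between those of the cocultured lines for all 8 genes, for example 296 CPM for IGFBP3 and 72.5 CPM for SLC12A7.

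**Figure D3:**
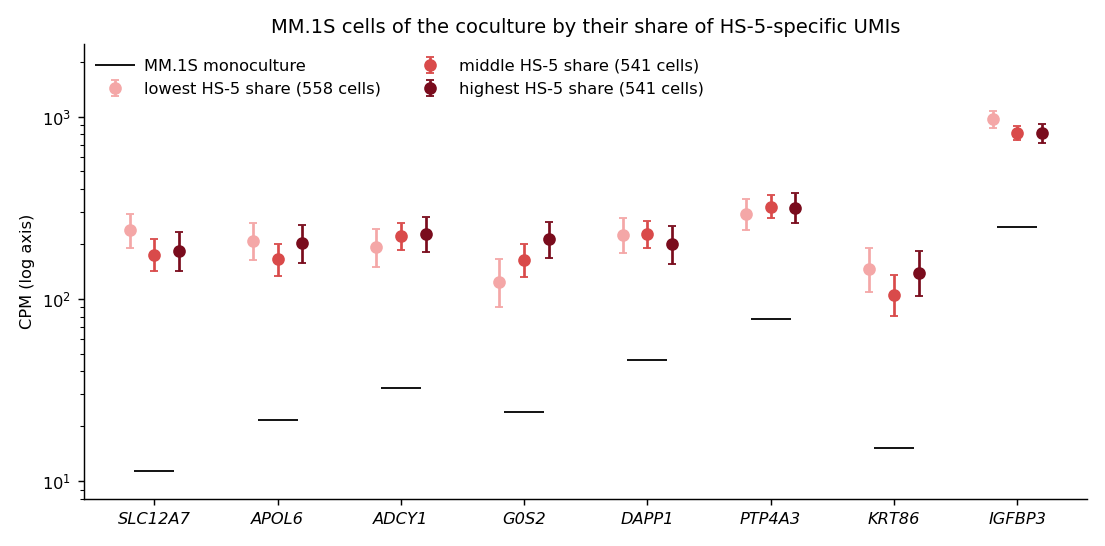
Level of each gene (CPM, log axis) in MM.1S coculture cells grouped by their share of HS-5-specific UMIs, with exact 95% Poisson intervals, and the MM.1S monoculture level as a black line. All points lie above the black lines, which the choice of the genes in these same cells largely fixes. G0S2 goes from 124 to 212 CPM between the lowest and the highest part.

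The share of MM.1S cells with a UMI of each gene was compared at equal depth. Each cell was thinned to 500 UMIs, which left out 443 of 1640 MM.1S coculture cells and none of the 3947 in monoculture. The share of MM.1S cells with an SLC12A7 UMI was 0.507% in monoculture (exact Clopper-Pearson interval 0.310 to 0.781%) and 9.19% in coculture (7.61 to 11.0%), where 0.626% and 0.498% of HS-5 cells had one. APOL6 went from 0.861% to 8.86%, G0S2 from 1.11% to 7.60% and KRT86 from 0.684% to 6.10%. ADCY1 went from 75 of 3947 cells to 117 of 1197 (9.77%), DAPP1 from 2.41% to 9.27% and PTP4A3 from 3.80% to 15.0%. IGFBP3 was found in 10.6% (9.65 to 11.6%) and 28.99% (26.4 to 31.7%) of MM.1S cells. For all 8 genes the 2 MM.1S intervals were apart, which the choice of the genes in these same cells largely fixes, and at most 1.55% of HS-5 cells (APOL6, coculture) were positive. For KRT86 it was 0 of 1806 HS-5 coculture cells, which allows up to 0.166% of cells with a UMI at 3 counts and up to 0.204% by the exact interval. Before thinning, the same 2 MM.1S shares were 2.84% and 14.0% for SLC12A7 and 30.7% and 37.2% for IGFBP3, since the monoculture cells were deeper.

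**Figure D4:**
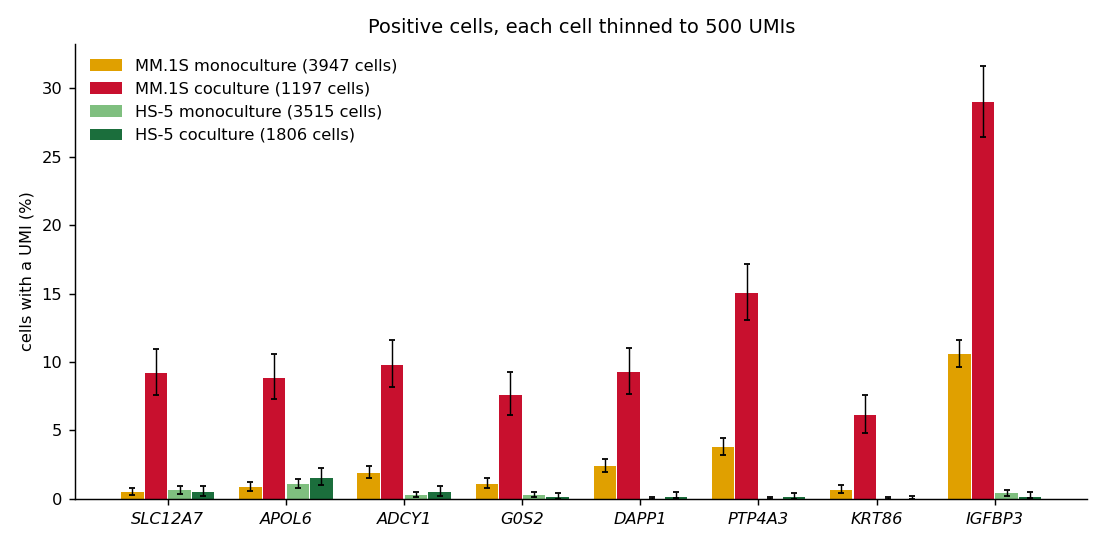
Percentage of cells with at least 1 UMI of each gene after thinning every cell to 500 UMIs, with exact 95% Clopper-Pearson intervals, in the 4 groups. MM.1S coculture cells range from 6.10% (KRT86) to 28.99% (IGFBP3), and HS-5 cells stay at or below 1.55%.

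Most positive cells held a single UMI. In cocultured MM.1S cells at 500 UMIs, 2 or more UMIs were found in 4.55% of SLC12A7-positive cells, 5.66% of APOL6-positive cells and 5.98% of ADCY1-positive cells. The share was 13.5% for DAPP1, 19.8% for G0S2 and 32.9% for IGFBP3. The Fano factor, the variance over the mean, is near 1 for random sampling of a uniform level, and it was 0.99 for SLC12A7 and PTP4A3, 1.30 for G0S2, 1.29 for DAPP1 and 1.69 for IGFBP3. IGFBP3 was the most uneven gene in monoculture too, with a Fano factor of 1.39 and 1 cell of 26 UMIs before thinning, against a highest cell of 19 in coculture. The level of KRT86 in cocultured MM.1S cells was lower in deeper cells, with 189 CPM in cells under 500 UMIs, 148 CPM in cells of 500 to under 1000, 101 CPM in cells of 1000 to under 2000 and 30.0 CPM in the 50 cells of 2000 or more (4 UMIs). In those 50 cells SLC12A7 was 105 CPM and G0S2 89.9 CPM, while ADCY1 was 247 CPM and IGFBP3 907 CPM. Where both cultures had many cells, at 1000 to under 2000 UMIs, KRT86 was at 21.4 CPM in 1602 monoculture cells and 101 CPM in 328 coculture cells, and SLC12A7 at 11.5 and 194 CPM. At 500 to under 1000 UMIs there were 77 monoculture and 819 coculture cells. Intervals of the 2 cultures overlapped there for ADCY1, at 110 CPM (47.4 to 216) and 217 CPM (181 to 258). They also overlapped for G0S2, at 68.6 CPM (22.3 to 160) and 193 CPM (158 to 232), and were apart for the other genes.

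Detection of the genes was spread over the cocultured MM.1S cells. At 500 UMIs, 63.5% of the 1197 cells had a UMI of at least 1 of the 8 genes (60.7 to 66.2%), against 19.9% in MM.1S monoculture, 2.73% in HS-5 monoculture and 2.93% in HS-5 coculture. At least 2 of the genes were found in 24.4% of cocultured and 1.85% of monocultured MM.1S cells, and at least 3 in 6.18% and 0.101%. The choice of the genes in these same cells largely fixes these differences. Across the 28 pairs of genes, having a UMI of one went with hardly more UMIs of the other. Pearson's r over the 1197 cocultured cells, which come from 1 library at 1 depth, ran from −0.04 to 0.06 with a median of 0.01, and for all 28 pairs the share of positive cells without the first gene lay within the counting interval of the share with it. The pair with the highest r was KRT86 and IGFBP3, where 37.0% of KRT86-positive cells and 28.5% of the others had IGFBP3. In counts this sparse, such weak correlations are no finding. Of 1660 genes compared, none reached r = 0.2 with any of the 8, and the highest value was 0.14, so no gene is named as most alike.

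**Figure D5:**
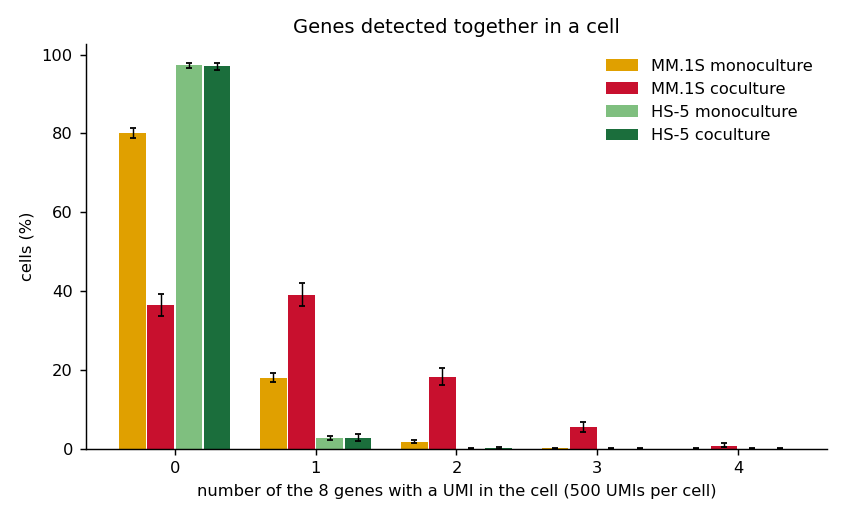
Percentage of cells in which 0 to 4 of the 8 genes had a UMI, each cell thinned to 500 UMIs, with exact 95% Clopper-Pearson intervals. In MM.1S coculture cells 36.5% had none of the genes, against 80.1% in MM.1S monoculture and over 97% in HS-5 cells. The choice of the genes in these same cells largely fixes that difference.

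The 8 genes lie on 7 chromosomes (GRCh38, GENCODE release 29). SLC12A7 is at chr5:1050376-1112035 on the minus strand, APOL6 at chr22:35648395-35668409, G0S2 at chr1:209675420-209676388, DAPP1 at chr4:99816833-99870154 and KRT86 at chr12:52249300-52309163, all on the plus strand but the first. ADCY1 (chr7:45574140-45723116, plus) and IGFBP3 (chr7:45912245-45921874, minus) are 189129 bases apart with 9 annotated genes between them. Of these, the pseudogene SEPT7P2 had a MM.1S log2 ratio of −0.19, and IGFBP1 was at 0.479 CPM in monoculture with 0 UMIs in coculture. Of the other genes within 250 kb, LAMB3, a laminin chain gene 22954 bases from G0S2, had a ratio of 2.97, and CLPTM1L, 205709 bases from SLC12A7, had 2.07, whereas NKD2, 11433 bases from SLC12A7, had 0.24. KRT86 overlaps 7 annotated genes, among them KRT7 on the same strand, whose level was 132 CPM in MM.1S monoculture and 178 CPM in coculture, and its opposite-strand neighbour KRT81 at 3.07 and 8.29 CPM. Whether the counting used strand is not given in the sources used here, so reads of KRT86 and the genes it overlaps may not be fully separate. G0S2, DAPP1 and PTP4A3 each overlap 1 other annotated gene, which had at most 2 UMIs in cocultured MM.1S cells. The last 500 bases of the APOL6 and DAPP1 transcripts matched another gene, SPIN3 at 81.8% identity over 505 aligned bases and S1PR3 at 87.7% over 301.

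Promoter sequences (RefSeq, GRCh38.p14, 250 bases before to 50 after a transcript start) were found for 5 of the 8 genes, ADCY1 with 2 starts. They were mostly rich in CpG, with 39 CpG in SLC12A7, 36 in IGFBP3, 24 in G0S2 and 18 and 48 in ADCY1, against a median of 14 over 35116 promoters, and DAPP1 stood apart with 3. The first and the CpG-poor one are shown 5′ to 3′ to set the gene with the highest ratio beside that exception, with CpG in capitals, SLC12A7 from chr5:1112014-1112313 (minus strand) and DAPP1 from chr4:99816577-99816876 (plus strand).
SLC12A7: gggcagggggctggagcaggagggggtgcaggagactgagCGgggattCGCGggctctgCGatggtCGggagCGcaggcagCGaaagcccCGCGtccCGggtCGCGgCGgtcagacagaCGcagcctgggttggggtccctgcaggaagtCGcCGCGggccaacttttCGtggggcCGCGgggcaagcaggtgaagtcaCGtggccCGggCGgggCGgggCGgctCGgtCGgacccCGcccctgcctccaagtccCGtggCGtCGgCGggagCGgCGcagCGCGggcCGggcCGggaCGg
DAPP1: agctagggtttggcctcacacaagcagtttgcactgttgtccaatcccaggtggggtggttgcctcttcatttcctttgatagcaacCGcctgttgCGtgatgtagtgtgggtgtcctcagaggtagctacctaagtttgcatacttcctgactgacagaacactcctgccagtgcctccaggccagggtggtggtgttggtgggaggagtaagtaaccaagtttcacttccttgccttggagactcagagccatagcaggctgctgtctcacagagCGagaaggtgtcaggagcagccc
GC content was 76.3% in the SLC12A7 window and 54.0% in the DAPP1 window, around a median of 58.7% over all promoters. On both strands, none of the 6 promoters held the STAT motif TTCNNNGAA, the interferon-stimulated response element, the cyclic AMP response element TGACGTCA, the TATA box TATAAA or the NF-κB motif. These letters are present in 7.66%, 3.57%, 1.85%, 11.5% and 11.3% of all promoters in that order, so few matches would be found among 6 in any case, and a window without a match says nothing of the factor.

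The pathways of the 8 genes were described by lists of their relatives, counting those whose mean in MM.1S cells reached 10 CPM. Among relatives of SLC12A7, 2 of 4 measured cotransporter and kinase genes were higher by a log2 ratio of at least 1 and none lower, SLC12A2 at 1.93 (10.7 to 43.7 CPM) and SLC12A9 at 1.80, whereas the kinase genes WNK1 (0.41) and OXSR1 (0.049) lay near the median of all genes. SLC12A4, also a potassium-chloride cotransporter gene, was under 5 CPM in MM.1S cells. Both measured APOL genes were higher, APOL2 at 2.21 (21.9 to 105 CPM) and APOL1 at 1.04. Of 10 genes for adenylyl cyclases, protein kinase A and its factors, 4 were higher and none lower, with a median of 0.62, led by ADCY3 (2.04), PRKAR2A (1.46) and PRKAR1B (1.29), and CREB1 was at 0.21.

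Among B cell receptor and PI3K genes, the surroundings of DAPP1, 2 of 7 were higher and none lower (median 0.29), among them VAV1 at 1.78 (9.58 to 35.4 CPM). SYK (−0.23) and BLNK (−0.09) were not, and the receptor genes CD79A and CD79B were at or near 0 in MM.1S cells. The other PRL phosphatases stood at 1.31 (PTP4A2) and 0.97 (PTP4A1). For G0S2, none of 4 lipolysis genes passed 1 in either direction (median 0.10), and its target PNPLA2 was at 5.46 CPM in monoculture and 13.6 CPM in coculture, a mean under the minimum. Of 4 keratin genes other than KRT86, 0 were higher and 1 lower, KRT8 at −1.72 (37.0 to 10.5 CPM), with KRT18 at −0.85 and KRT10 at 0.48. Under the minimum, KRT80 was at 4.12 and 15.8 CPM (1.72) and KRT81, named above, at a ratio of 1.19. In the insulin-like growth factor list 2 of 4 were higher, IGFBP2 at 2.60 (5.37 to 37.7 CPM) and IGF2R at 1.08, and the receptor gene IGF1R was at −0.41. These counts stand beside 19% of all genes higher and 5.79% lower.

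Of the lists of stimuli, genes of the interleukin 6 and STAT3 response had a median of 2.31, with 11 of 13 higher and 1 lower. Beside these counts, 19% of the 7836 MM.1S genes were higher and 5.79% lower. The highest in the list were SOCS3 (3.70), IRF1 (3.59) and BCL3 (3.52), and the lower gene was PIM1 (−1.15), with PIM2 at −0.64. In HS-5 cells 1 of 10 genes of that list was higher, beside 1.19% of the 8815 HS-5 genes, and the list median was 0.01. Interferon response genes had a lower median in MM.1S, 0.61, with 4 of 14 higher, beside 19% of the MM.1S genes. These 4 were GBP1 (3.47), GBP2 (2.87), TAP1 (2.74) and MX1 (1.28), while IFIT1 was at −0.87, STAT2 at −0.70 and B2M at −0.62. In HS-5 cells 4 of 12 interferon genes were higher (median 0.71), beside the same 1.19%, while APOL6 was at 0.20 there. Within cocultured MM.1S cells at 500 UMIs, the 369 cells with 2 or more UMIs of the 8 genes held 0.810 UMIs of the interleukin 6 and STAT3 list on average, and the 437 cells with none held 0.703 (Pearson's r = 0.05 over 1197 cells, a description). The corresponding interferon means were 4.24 and 4.02 UMIs, and those of HS-5-specific genes 0.783 and 0.844.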

How the data were processed

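Single-cell UMI counts came from 3 Drop-seq libraries, 1 per condition. The deposited values are raw counts, whole numbers of UMIs for every gene in every barcode, which the authors did not normalize. Per the submitters' processing notes, tools included UMI-tools 1.0.0, STAR 2.5.3a, featureCounts 1.6.4, SAMtools 1.9 and Cell Ranger 3.0.2, with no roles stated, and the paper's methods name Seurat 2.4. The libraries held 3994 (MM.1S), 3865 (HS-5) and 3963 (coculture) barcodes with 10433182, 6143448 and 3981392 UMIs.

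Cells in which 200 or more genes were detected entered the sums. Line-specific genes were at least 50 CPM in their own monoculture and 50-fold over the other. Coculture cells with at least 5 such UMIs were MM.1S at an HS-5 share under 0.2, HS-5 over 0.8 and doublets between. UMIs were summed per line and culture and scaled to CPM, and ratios are log2 with a pseudocount of 1. In cocultured MM.1S cells 3 UMIs equal 2.26 CPM. Free RNA was estimated from line-specific genes, and cells were thinned at random for equal depth. Intervals are exact Poisson, conditional binomial or Clopper-Pearson (numpy 2.4.6, scipy 1.17.1). Molecules are counted by UMI, and the intervals do not cover differences between cultures. Transcript ends were compared with blastn 2.17.0. GENCODE release 29 held 97.3% of the gene symbols. The free RNA estimate and the log2 ratios after its subtraction were tested on simulated summed counts, and the other steps were not simulated.

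The 8 genes and the lists of relatives were chosen with earlier results of these data known. The genes named are the 8, the 10 others with the highest MM.1S ratio at a mean of at least 50 CPM, and up to 3 highest and 3 lowest members of each list, of which some are not reported here. Others were named as neighbours, overlapping genes, markers or background after their values were seen. Alternatives covered the cells kept, doublet limits, line-specific genes, free RNA, scaling, pseudocount, transcript length, minimum level and depth.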

Additional observations from a re-analysis of the deposited data

Results flagged for a closer look

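KRT86 had a log2 ratio of −1.56 in HS-5 cells and 2.97 in MM.1S cells, opposite directions in the 2 lines under the same contrast. The difference was not tested, since each condition is 1 library. The HS-5 value rests on 12 UMIs in monoculture, 6 of them in 1 cell, and 0 UMIs in coculture. Its size therefore depends on the pseudocount, at −0.48 with 5 CPM and −4.36 with 0.1 CPM.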

How the results depend on the processing

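No paired analysis was possible because each condition is 1 library, and for the same reason no library could be left out. All 8 genes had an MM.1S log2 ratio above 1 in 14 of 14 settings, the lowest value being 1.54 for IGFBP3 and the highest 4.09 for SLC12A7. The choice of the genes by this ratio in the same libraries largely fixes that outcome. The number with a ratio of at least 2 ranged from 5 to 8. The median of 2.71 moved to 2.46 with median-of-ratios size factors, under which the median of all genes moved from 0.24 to −0.02, and to 2.24 in cells of 1000 to under 2000 UMIs, a setting chosen after seeing the data. In HS-5 cells the number of genes at 1 or more went from 0 to 1, DAPP1, with equal weight per cell, with median-of-ratios size factors, with totals without ribosomal protein and mitochondrial genes and with a pseudocount of 0.1. The HS-5 median of 0.13 turned to −0.46 with free RNA subtracted, −0.20 with doublet limits of 0.1 to 0.9 and −0.06 with cells of 200 to 2500 genes and under 5% mitochondrial UMIs. Subtraction took IGFBP3 in HS-5 cells from −0.39 to −3.29, PTP4A3 from 0.60 to −0.65, ADCY1 from 0.41 to −0.12 and G0S2 from 0.07 to −0.40. At equal depth all 8 genes had separate intervals in each of 7 alternatives, 300 and 1000 UMIs included, which the choice of the genes in the same cells largely fixes. With a minimum of 50 CPM for the lists, medians moved to 0.049 for the cotransporters, 2.21 for the APOL family, 0.73 for lipolysis, 1.25 for B cell receptor and PI3K genes and 0.43 for keratins, each then over 1 to 3 genes, and no insulin-like growth factor gene, nor any of the 8 genes in HS-5 cells, was left to give a value. The cocultured MM.1S cells, with 1327039 UMIs in all, limit levels under 2.26 CPM.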
